A study of Mus musculus with 2 samples.

Results

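Collagens and laminins are the main building proteins of the extracellular matrix, and 55 of their genes were followed here in TECs (thymic epithelial cells) of mice. They are all genes whose symbols, among 32285 listed, have the form of a collagen alpha chain (44 genes) or of a laminin alpha, beta or gamma chain (11 genes). Beyond its symbol, a gene was chosen by its summed UMI count, and entered when it had at least 20 UMIs (unique molecular identifiers, each the mark of a captured RNA molecule) over the cells kept from both libraries. Every symbol of that form passed. The lowest was Col28a1 with 27 UMIs, followed by Col24a1 with 54, so that no gene lay just outside the limit.

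TECs were profiled by scRNA-seq in droplets. Each condition has 1 library, from a pool of 3 female C57BL/6 mice, sorted as EpCAM+ CD45- TER119- cells. One group received 5.5 Gy of radiation at 7 weeks of age and was analysed 15 days later, and the control group was not irradiated. The labels give an age of 9 weeks for both groups and 4 weeks in the protocol. The deposit's labels and the cell numbers of the study name the conditions in opposite ways. The library labelled as irradiated held 4937 barcodes, of which 3233 were kept, and is called the smaller library. The library labelled as control held 7167 barcodes, of which 5070 were kept, and is called the larger library. By the study's own cell numbers the larger library is the irradiated one. Ratios are given as larger over smaller, which is irradiated over control by the study's cell numbers and control over irradiated by the deposit's labels.

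The kept cells held 51586327 UMIs in the smaller and 75542631 in the larger library, with medians of 13412 and 13002.5 per cell, and the libraries shared 17 cell barcodes. With 1 library per condition there is no replicate, so no test was made, and every 95% interval (exact Poisson for a level, exact binomial for a ratio or a share) covers counting error only. Levels are UMIs per 10000 UMIs of the same cells. They compare cells for a gene, and gene with gene only as captured molecules, because the UMIs were not divided by length. Cells were clustered without the collagen and laminin genes, and 10 of the 14 clusters, C0 to C9, held at least 100 cells of each library. C0 and C1 were Ccl21a+ mTEC-like (medullary TECs), with 102 and 131 Ccl21a UMIs per 10000. C4 was Aire+ mTEC-like, C6 and C7 were TA-mTEC-like (transit-amplifying, with cell cycle genes), C8 was cTEC-like (cortical) and C9 tuft-like. C2, led by Muc13, Ccl9 and Lypd8, was left unnamed. C3, which had 9.21 Aire UMIs per 10000 and was led by S100a8 and S100a9, was left unnamed. C5 was left unnamed too. It had the most Pdpn, 1.22 per 10000, before C1 with 0.991 and C0 with 0.627, and held 27.2 Ccl21a UMIs per 10000.

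Collagen chains wind round each other into helices that are built into fibrils, sheets or filaments outside the cell. Type IV collagen and laminins form the sheets of the basement membrane, on which epithelial cells sit. A laminin is assembled from an alpha, a beta and a gamma chain, and Lama3 and Lamb3 encode chains of the laminin by which hemidesmosomes hold basal epithelial cells. In the thymus, basement membranes line the capsule, the septa and the vessels, and TECs form a meshwork around the thymocytes. mTECs also express many genes of other tissues at low frequency, for part of which Aire is needed.

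Several of the most abundant members lie next to each other in the genome. The promoters of Col6a1 and Col6a2 are shown first, because these abundant transcripts were the ones that set the Ccl21a+ mTEC-like clusters furthest apart. Both genes are on the minus strand of chromosome 10, 85161 bases apart in GENCODE vM21 (GRCm38). The sequences are the 250 bases before the RefSeq transcript start on GRCm38.p6, at chr10:76726045-76726294 for Col6a1 and at chr10:76623405-76623654 for the more downstream of 2 listed starts of Col6a2, both read on the minus strand. Capitals mark an AP-1 site (TGANTCA) or a GC box (GGGCGG, or CCGCCC on the other strand).
Col6a1: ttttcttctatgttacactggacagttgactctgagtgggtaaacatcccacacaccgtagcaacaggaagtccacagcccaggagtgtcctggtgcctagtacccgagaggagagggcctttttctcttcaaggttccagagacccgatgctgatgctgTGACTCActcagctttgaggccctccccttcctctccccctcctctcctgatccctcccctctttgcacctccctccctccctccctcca
Col6a2: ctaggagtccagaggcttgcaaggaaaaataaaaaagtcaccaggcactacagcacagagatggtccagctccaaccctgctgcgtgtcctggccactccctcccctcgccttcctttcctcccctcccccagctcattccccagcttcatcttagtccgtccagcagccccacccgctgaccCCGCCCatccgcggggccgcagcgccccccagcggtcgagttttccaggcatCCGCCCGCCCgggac

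The Col6a1 stretch held 1 AP-1 site and no GC box, and the Col6a2 stretch held 3 GC boxes, of which the last 2 overlap, and no AP-1 site. The stretch before the other listed start of Col6a2, not printed, held 1 GC box and no AP-1 site. In GENCODE vM21 the genes begin at 76726168 (Col6a1) and 76623630 (Col6a2), so a part of each printed stretch lies inside the gene by that annotation. For Col6a2 this is most of the stretch. The marked AP-1 site of Col6a1 and all marked GC boxes of Col6a2 lie in these parts, and so not before the start in GENCODE. Over 32851 RefSeq windows of 300 bases (250 before and 50 after a start), 7.81% held an AP-1 site and 35.7% a GC box, with both strands searched. Of 44 windows of collagen and laminin genes, 1 held an AP-1 site, that of Col6a1, and 26 held a GC box. Windows were found for 40 of the 55 genes. A match only says that these letters are there.

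Col4a1 and Col4a2 are shown for their shared start. Col4a1 runs on the minus strand and Col4a2 on the plus strand of chromosome 8, and their 5′ ends overlap by 22 bases at chr8:11312805-11312826. These bases, read on the plus strand, are bounded by both RefSeq starts. They hold 1 GC box, in capitals.
Col4a1 and Col4a2: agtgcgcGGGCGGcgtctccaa

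Together the 55 genes gave 157644 UMIs, 0.124% of all UMIs. Collagens held 120885 and laminins 36759 of them. Col6a1, Col4a1 and Col6a2 alone held 43.0% of the collagen UMIs. Of the 55 genes, 26 had at least 1000 UMIs and 51 at least 100.

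Summed collagen RNA was highest in the Ccl21a+ mTEC-like clusters, at 19.3 and 18.6 UMIs per 10000 in C0 and 20.03 and 20.6 in C1 (smaller and larger library, in this order throughout). C5 followed with 12.8 and 11.5 and C3 with 10.2 and 10.3, and the other 6 clusters held 4.59 to 8.83 over both libraries. Laminin RNA had another order. C0, C1 and C5 lay close together at 5.38, 5.72 and 5.69 per 10000 over both libraries, C8 had 4.67, and Aire+ mTEC-like C4 had the lowest level, 1.05. The intervals of C0 and C5 overlapped in the smaller library (5.28 to 5.69 and 5.43 to 5.86) but not in the larger (5.16 to 5.48 and 5.53 to 5.97). C3, next after C5 in collagens, was low in laminins, with 1.64. C0 and C1 together made up 27.9% of the cells and held 39.6% of the collagen and 36.9% of the laminin UMIs.

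**Figure D1:**
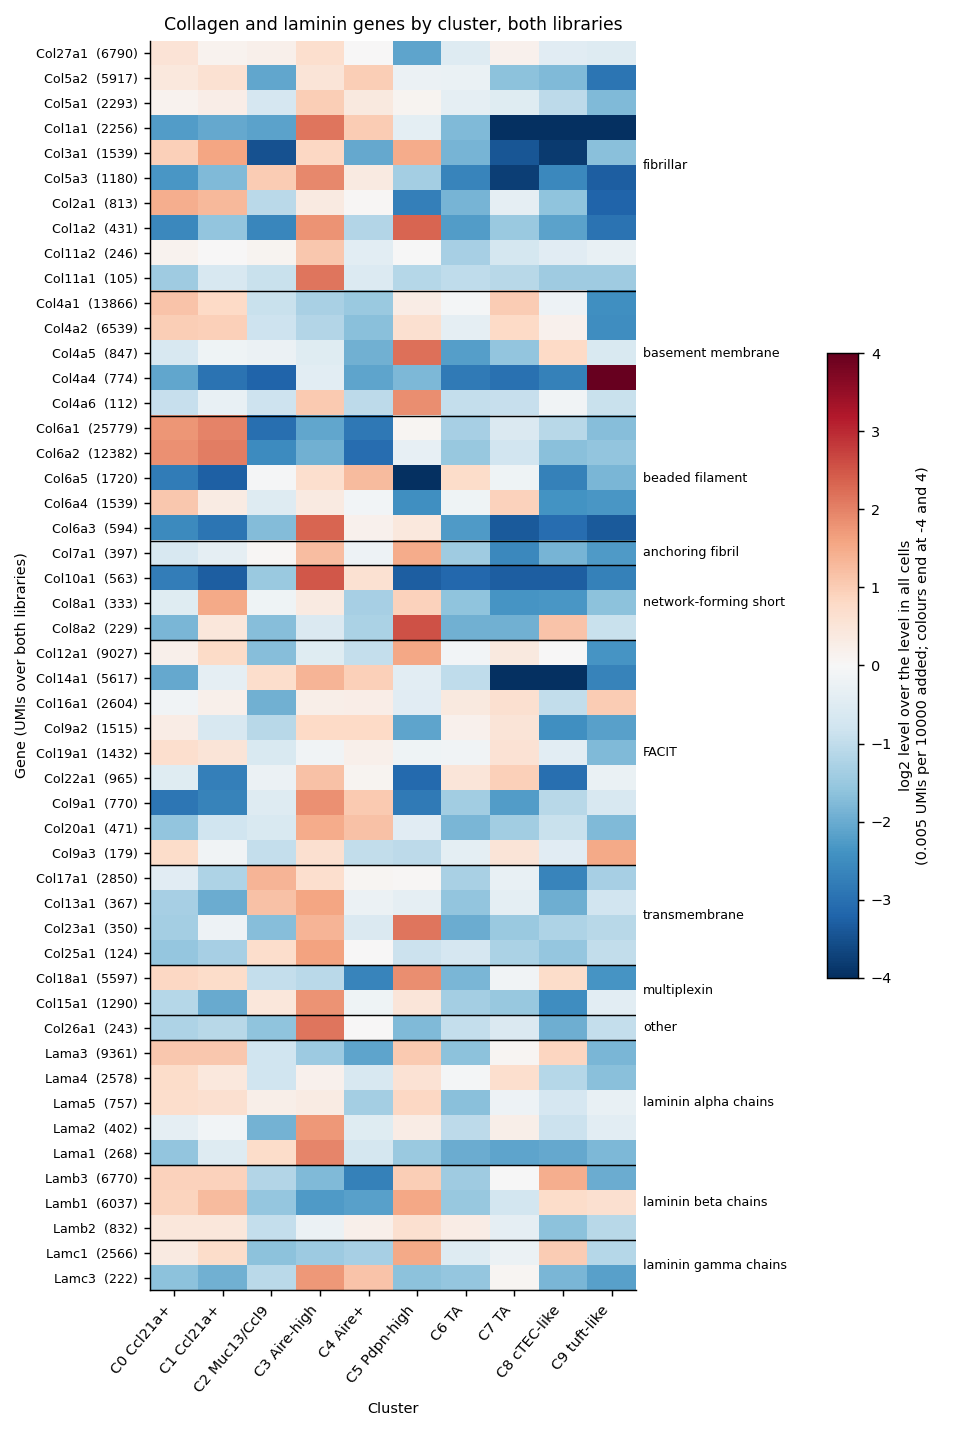
Level of 50 genes with at least 100 UMIs (rows, by role, with the UMIs in brackets) in the 10 clusters with at least 100 cells of each library (columns), as log2 of the level over that in all cells, both libraries summed. Col6a1 and Col6a2 stand out in C0 and C1, Col4a4 in C9, and several genes of under 1000 UMIs, such as Col10a1 and Col26a1, are highest in C3.

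In C0 and C1 together, 10 of the 51 genes with at least 100 UMIs were at least 2-fold higher than in all other cells in each library, against 5.49% of all genes with at least 100 UMIs. Among them were Col6a1, Col6a2, Col4a1, Col4a2, Col2a1, Col3a1, Lama3, Lamb1 and Lamb3. At least 2-fold lower were 18 of the 51, against 30% of all genes. C5 had 13 of the 51 higher against 7.51%, C3 21 of the 51 against 20.2%, and Aire+ mTEC-like C4 7 of the 51 against 5.78%. Lower were 16 of the 51 in C5 (28.4% of all genes), 18 of the 51 in C4 (16.1%), 22 of the 51 in C2 (15%) and 23 of the 51 in the small keratinocyte-like C11 (15.4%). Also lower were 27 of the 51 in cTEC-like C8 (29.1% of all genes), 30 of the 51 in tuft-like C9 (25.9%) and 29 of the 51 in the TA-mTEC-like clusters (28.7%), where none of them was higher (3.9%). Lower in C3 were 9 of the 51 (7.67%). Higher in cTEC-like C8 were Lamb3, Lamc1 and Col8a2 (3 of the 51, against 5.22%), in tuft-like C9 Col4a4 and Col9a3 (2 of the 51, against 9.68%), in C2 Col17a1, Col13a1 and Col5a3 (3 of the 51, against 9.53%), and in C11 5 of the 51 (8.42%). The Ccl21a+ clusters also differed from each other. C1 alone had 8 of the 51 higher (4.5%), and in C1 over C0, Col14a1 and Col8a1 were at least 1.5-fold higher in each library (2 of 27, against 3.11%) and Col6a4, Col9a2 and Col17a1 lower (3 of 27, against 3.79%). A cluster against the rest is a description. Of the 55 genes, 40 were highest in the same cluster in both libraries. The share of all genes for which this holds was computed only for C3 and C5, given below. The count of 40 therefore cannot be read as a trait of these genes.

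Type VI collagen forms beaded filaments around cells, and its chains Col6a1 and Col6a2 were the members most tied to the Ccl21a+ mTEC-like clusters. Col6a1 reached 6.83 (6.61 to 7.06) and 6.99 (6.81 to 7.18) UMIs per 10000 in C0 and 7.65 (7.39 to 7.91) and 8.19 (7.98 to 8.41) in C1. In C5 it held 1.91 and 2.40, in TA-mTEC-like C7 1.27 and 1.41, and in C2, its lowest, 0.237 and 0.257. The intervals of C0 and C1 lay above those of the other 8 clusters, and C0 and C1 together were 10.8-fold and 9.50-fold above all other cells. After thinning each cell to 4000 UMIs, 87.0% and 85.2% of C0 cells had a Col6a1 UMI, against 5.06% and 6.11% of C2 cells, and unthinned 97.2% and 95.9% against 10.6% and 10.1%. The median depth was 9629 and 9992 UMIs in C0 and 14224 and 12604.5 in C2, so that the cluster with the low share was the deeper one. Thinning left out 0 cells of the smaller and 5 of the larger library that had fewer UMIs.

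Col6a2 had the same leading clusters in the same order, C1, C0, C5 and C7. It held 3.66 and 3.37 per 10000 in C0 and 3.98 and 4.08 in C1, and 0.112 to 0.771 in the other 8 clusters over both libraries, 13.7-fold and 10.9-fold in C0 and C1 over all other cells. The ratio of Col6a1 to Col6a2 UMIs was 1.99 in C0 and 1.97 in C1, and ran from 1.47 in C2 to 3.12 in C8. Col6a3, their usual partner in the type VI helix, did not share the pattern. Col6a3 held 0.00379 per 10000 in C0 and 0.00177 in C1 over both libraries and was highest in C3, at 0.294 and 0.227, where 9 of its 16 cells with at least 10 UMIs lay. The chains that can replace it divided between clusters. Col6a4 was highest in C0, with 0.289 and 0.241, and in C7, with 0.261 and 0.223, while Col6a5 was highest in C4, with 0.361 and 0.314, and held 0.0152 and 0.00972 in C0 and C1. Col6a4, Col6a5 and Col6a6 lie side by side on chromosome 9, 28810 and 27917 bases apart, and Col6a6 gave 75 UMIs in all.

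**Figure D2:**
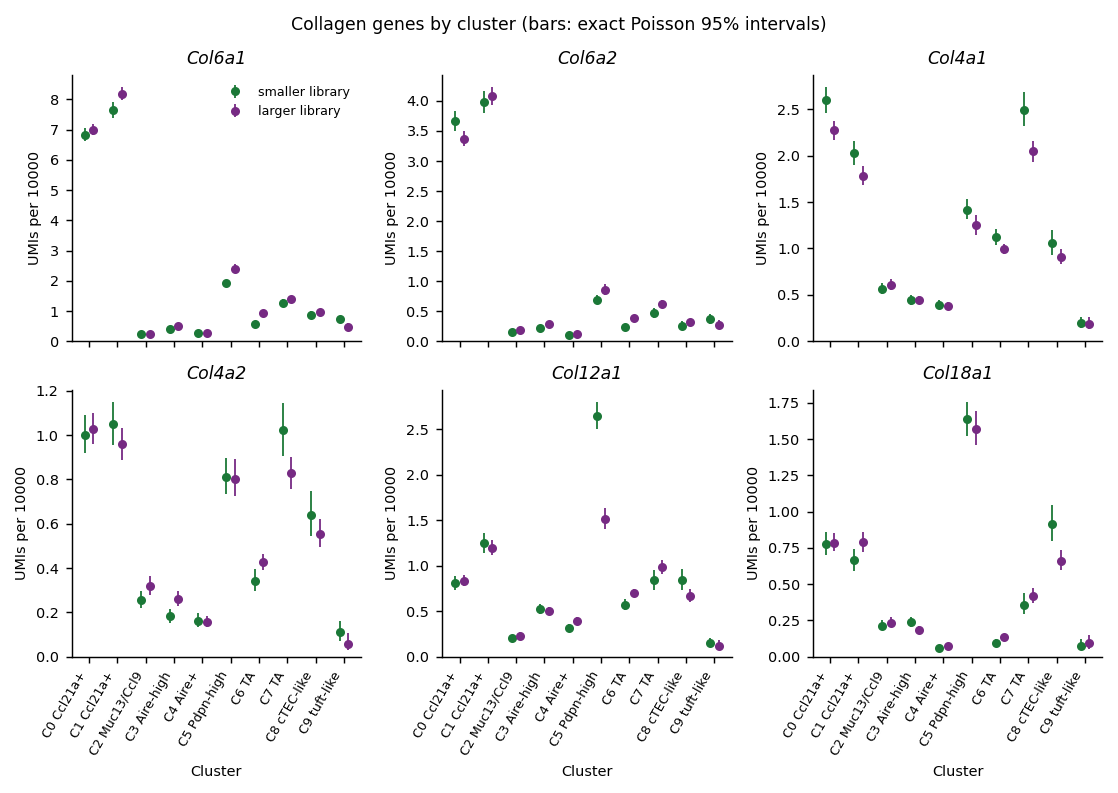
UMIs per 10000 (vertical axes, from 0) of 6 abundant collagen genes in 10 clusters, with a point for each library and its exact Poisson 95% interval. Col6a1 and Col6a2 are highest in C0 and C1, Col4a1 and Col4a2 in C0, C1 and C7, and Col12a1 and Col18a1 peak in C5.

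The chains of the common basement membrane network, Col4a1 and Col4a2, were more widely spread. Col4a1 held 2.60 and 2.27 per 10000 in C0, 2.50 and 2.05 in TA-mTEC-like C7, 2.03 and 1.78 in C1 and 1.42 and 1.25 in C5, and was lowest in tuft-like C9 with 0.198 and 0.190. In the smaller library the intervals of C0 and C7 overlapped (2.46 to 2.74 and 2.32 to 2.69), so the order of these 2 clusters was not resolved there. Col4a2 held 1.00 and 1.03 in C0, 1.05 and 0.958 in C1, 1.02 and 0.828 in C7 and 0.110 and 0.0574 in C9. Across the 10 clusters the ratio of Col4a1 to Col4a2 UMIs stayed between 1.65 in C8 and 2.59 in C6. C6 and C7, which share the name TA-mTEC-like, differed in both genes, with 1.12 and 0.993 Col4a1 UMIs per 10000 in C6.

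The other type IV chains, which replace Col4a1 and Col4a2 in a few basement membranes such as those of the kidney glomerulus, were highest in other clusters. Col4a4 had 82.6% of its 774 UMIs in tuft-like C9. There it held 1.24 (1.10 to 1.40) and 2.04 (1.84 to 2.27) per 10000, against a median of 0.00772 over the 10 clusters, 107-fold and 192-fold over all other cells. After thinning, 28.9% and 40.1% of tuft-like cells had a Col4a4 UMI (40.8% and 63.3% unthinned), against 1.89% and 1.66% of C3 cells. The 12 cells with at least 10 Col4a4 UMIs were all in C9 and held 23.7 UMIs per 10000 of Avil, a tuft cell gene. Col4a3 lies 71 bases from Col4a4 on the opposite strand and is its partner in the same helix, but had 84 UMIs in all, 86.9% of them in C3 and 0 in C9. A count of 0 in C9 allows up to 3 UMIs. Col4a5 was highest in C5, with 0.324 and 0.328 per 10000, 6.44-fold and 7.60-fold over all other cells. Col4a6, which lies 1308 bases from Col4a5 on chromosome X on the opposite strand, was also highest in C5, at 0.0458 and 0.0443, with 112 UMIs in all.

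C5, the cluster with most Pdpn, led for 12 of the 55 members (10.9% of all genes with at least 20 UMIs), 10 of them in both libraries (6.26%), among them the abundant Col12a1 and Col18a1. Col12a1, a FACIT collagen that sits on the surface of fibrils, held 2.65 and 1.52 per 10000 in C5, against 1.25 and 1.20 in C1. Col18a1, a multiplexin of basement membranes from which endostatin is cut, held 1.64 and 1.57 in C5, and 0.740 to 0.783 in C0, C1 and C8 over both libraries, with 0.0669 in C4. Col7a1, which forms the anchoring fibrils under the epidermis, was highest there too, at 0.127 and 0.0620. C3 was close, with 0.116 and 0.0515 from 79 and 44 UMIs. The rarer Col8a2, of the network-forming short collagens, held 0.175 and 0.0819 in C5 and 0.0733 and 0.0330 in C8, and the transmembrane Col23a1 0.181 and 0.0930 in C5. Col7a1, Col23a1 and Col4a6 were at least 2-fold higher in C3 as well, over all other cells in each library. Dcn, on the fibroblast list, also peaked in C5 at 14.5 per 10000, while the rest of that list summed to 0.759 there, against 1.67 in C3. Pdgfra held 0.0440, Lum 0.211 and Epcam 5.33 in C5. Pdgfra UMIs were found in 8 cells of C5, and 4 of these were among 5 cells rich in Col1a1, described below. Those 5 cells held 4.97 of Pdgfra, 15.8 of Lum and 63.3 of the list without Dcn per 10000.

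The other FACIT and transmembrane collagens had no common cluster. Col14a1, which also sits on fibrils, was highest in C3, with 1.20 and 1.11 per 10000, C4, with 0.866 and 0.850, and C2, with 0.617 and 0.826, and at or under 0.0274 in C7 and C8. Col16a1 was highest in tuft-like C9 in the smaller library, at 0.527 and 0.276, and in C7 in the larger, at 0.370 and 0.305. Col17a1, the transmembrane collagen of hemidesmosomes, was highest in C2, at 0.604 and 0.574, beside 0.346 and 0.924 in the small keratinocyte-like cluster C11. Col9a2 (highest 0.212 in C3 and 0.212 in C4) and Col19a1 (highest 0.181 in C0) stayed low in all clusters. The network-forming Col8a1 had 0.965 per 10000 in C12, a cluster of 43 cells led by genes of secretory granules, and at most 0.0848 in C0 to C9. Col22a1 (965 UMIs) and Col9a1 (770) were highest in C3 over both libraries, at 0.178 and 0.227, as was Col20a1 (471), at 0.112. The same held for the transmembrane Col13a1 (367) and Col25a1 (124), at 0.0963 and 0.0397, and for the multiplexin Col15a1 (1290), at 0.366.

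Among the fibrillar collagens, Col27a1 gave the most UMIs, 6790. It held 0.907 and 0.823 per 10000 in C3 and 0.747 and 0.817 in C0, and was lowest in C5, at 0.0894 and 0.151. Col5a2, a type V chain that limits fibril width, was highest in C4, at 0.861 and 0.957, then at 0.720, 0.670 and 0.631 in C1, C3 and C0, and the other type V chains Col5a1 and Col5a3 were highest in C3, at 0.321 and 0.393 and at 0.385 and 0.343. Col3a1, the usual companion of type I fibrils, held 0.317 and 0.407 in C1 and 0.387 and 0.306 in C5. The order of these clusters thus turned between the libraries. Without 5 cells of C5 with at least 10 Col1a1 UMIs, described below, Col3a1 in C5 held 0.202 and 0.151, under C1 in both libraries. Of 37 cells with at least 10 Col3a1 UMIs, 8 were in C1 and 9 in C5, but no cells were left out of C1. Col2a1, the cartilage collagen, was highest in C0 and C1, at 0.191 and 0.176 and at 0.216 and 0.134. Col11a2 (246 UMIs) was highest in C3, at 0.0454 and 0.0468. The type I chains differed from each other. Col1a1 was highest in C3, at 0.641 and 0.919, then in C4, at 0.367 and 0.358, with 0.0341 in C0 over both libraries. Col1a2 was highest in C5, at 0.229 and 0.146, then in C3, at 0.155 and 0.112, and held 0.0121 in C4. Without the 5 cells of C5 rich in Col1a1, C5 held 0.0820 and 0.0533 of Col1a2, less than C3. The lead of C5 for Col1a2, counted above, was thus gone without these 5 cells, but no cells were left out of C3. Of 10 cells with at least 10 Col1a2 UMIs, 6 were in C3 and 4 in C5, so the level in C3 rests on few cells too. The ratio of Col1a1 to Col1a2 UMIs was 6.05 in C3, 29.9 in C4 and, with the 5 cells of C5 kept, 0.716 in C5, although a type I helix holds chains of both genes.

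Lama3 and Lamb3, of the hemidesmosome laminin, were high in C0, C1, C5 and C8. Lama3 held 1.53 and 1.58 per 10000 in C0, 1.63 and 1.54 in C1, 1.44 and 1.61 in C5 and 1.53 and 1.27 in cTEC-like C8, and 0.126 and 0.194 in C4, its lowest. Lamb3 differed in that C8 came first of the 10 clusters, with 1.66 (1.504 to 1.83) and 1.36 (1.26 to 1.46), 3.23-fold and 3.08-fold over all other cells, before C0 and C5, with 1.16 and 0.928 in either, and C1, with 1.16 and 0.922. Of 24 cells with at least 10 Lamb3 UMIs, 9 were in C8 and 8 in C10, a nurse cTEC-like cluster of 146 cells led by thymocyte genes. These counts were not thinned, and the median depth was 31494.5 and 25165.5 UMIs in C10 and 15109 and 14050 in C8. The ratio of Lama3 to Lamb3 UMIs ran from 0.931 in C8 to 2.13 in C4.

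Lamb1 and Lamc1, chains found in most basement membranes, were highest in C5. Lamb1 held 1.31 and 1.51 per 10000 in C5, 1.21 and 1.12 in C1 and 1.02 and 0.680 in C8, and 0.786 and 0.672 in tuft-like C9, where Lamb3 held 0.105 and 0.167 and Lamc1 0.0878 and 0.0919. C9 was the only cluster of the 10 with more than 1.34 Lamb1 UMIs for each Lamb3 UMI, at 5.58. Lamc1 held 0.589 and 0.589 in C5 and 0.460 and 0.396 in C8, and C3, C2, C4 and C9 had 0.0607 to 0.0896 over both libraries. Of the alpha chains, Lama4, which is known from vessel walls, was spread over C0, C1, C5 and C7 (0.273 to 0.338), and Lama5, common in epithelial basement membranes, reached 0.109 in C5 and 0.100 in C0, with 0.0202 in C4. Lama2, the muscle laminin chain, and Lama1 were highest in C3, at 0.133 and 0.102 for Lama2 and 0.123 and 0.0738 for Lama1. Lamb2 lay between 0.0177 and 0.104 in all 10 clusters, and Lamc3 was highest in C3, at 0.0585 and 0.0773.

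**Figure D3:**
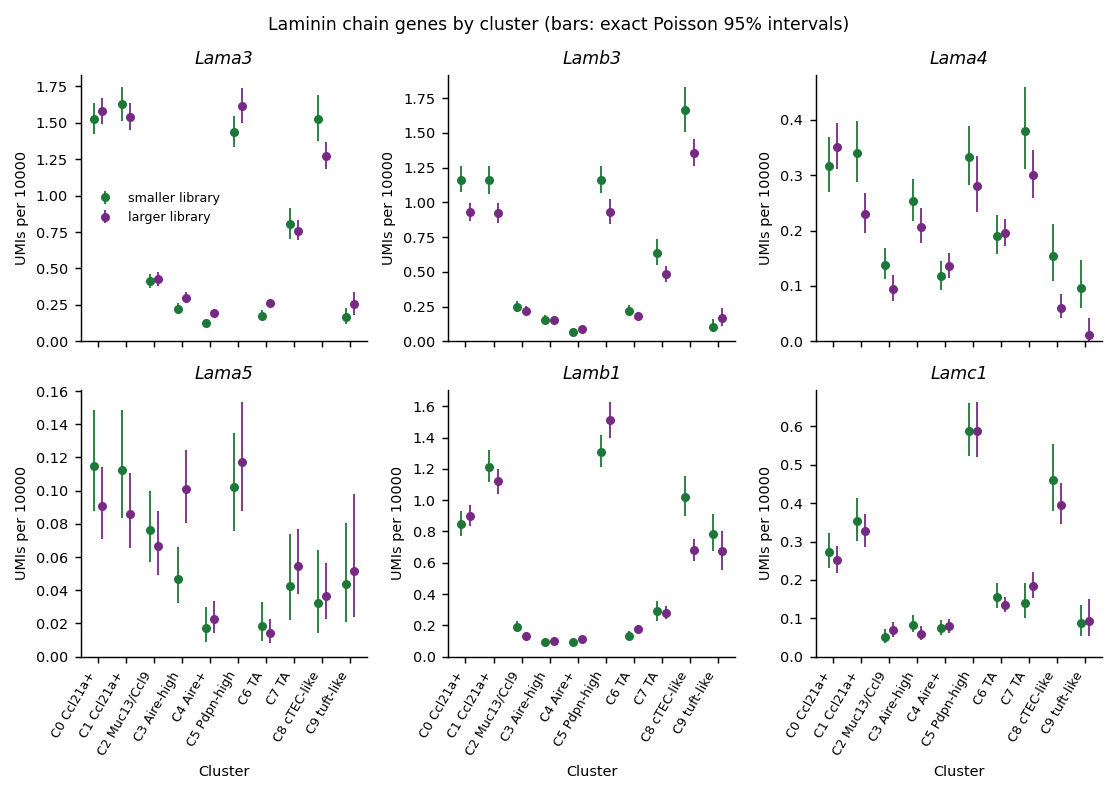
UMIs per 10000 (vertical axes, from 0) of 6 laminin chain genes in 10 clusters, with a point for each library and its exact Poisson 95% interval. Lama3, Lamb3, Lamb1 and Lamc1 are high in C5 and C8 as well as in C0 and C1, and Lamb1 is raised in C9.

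A second pattern was of RNA held by very few cells. For each gene the share of its UMIs in the 83 cells with the most, 1% of all, was taken. It was 7.62% for Col4a1, 8.64% for Lama3 and 9.22% for Col6a1, but 87.5% for Col1a1, 67.1% for Col3a1, 57.1% for Col15a1 and 55.1% for Col5a3. These last 4 were the ones of 26 genes with at least 1000 UMIs at which the share reached 50%, against 4.04% of all genes with as many UMIs. With at least 100 UMIs they were 25 of the 51, against 24.2%, and a gene of few UMIs can reach a high share by its low count alone. At like counts the share still differed, with 22.6% for Lamb2 (832 UMIs) and 70.9% for Col4a4 (774). Of the 55 genes, 23 were highest in C3, against 27.2% of all genes with at least 20 UMIs, and 19 were so in both libraries, against 20.3%. In C3, 107 of 912 cells had at least 10 UMIs of any of the 29 genes with a share of at least 50%, 16 of these genes were seen so, and 13 cells had at least 10 UMIs of more than one of them. In C4 the numbers were 41 cells, 11 genes and 1 cell with more than one, and in the 2320 cells of C0 and C1 they were 13 cells, 1 gene and 0 cells. These counts were not thinned, and the clusters differed in depth. The median UMIs per cell were 15969.5 in C3, 20046.5 in C4, 9840.5 in C0 and 9709.5 in C1. The 29 genes were picked by their share in these data, and no such count was made for other genes.

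Col10a1, the collagen of hypertrophic cartilage, shows this pattern. All its 563 UMIs were in 31 cells of the smaller and 33 of the larger library, and 18 cells with at least 10 UMIs, 15 in C3 and 3 in C4, held 78.9% of them. A single cell had 80. These 18 cells all had Epcam UMIs, 17 had Aire UMIs, and they held 9.36 Aire and 1.09 Col1a1 UMIs per 10000.

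Cells rich in Col1a1 were of more than one kind. At least 10 Col1a1 UMIs were found in 61 cells, 26 of the smaller and 35 of the larger library, which held 80.8% of its UMIs, with up to 123 in a single cell. Of these cells 35 were in C3, 15 in C4 and 5 in C5. The 35 cells of C3 held 15.7 Col1a1 UMIs per 10000 but 0.0440 of Col1a2 and 0.279 of Col3a1, together with 5.77 of Epcam, 14.8 of Krt8 and 10.8 of Aire. Of the fibroblast markers they held 0.543 of Dcn, 0.0734 of Lum and 0.0587 of Pdgfra, the last in 1 cell. The list without Dcn summed to 1.92 in them, to 1.67 in all cells of C3 and to 0.663 in all kept cells. The 5 cells of C5, 3 of the smaller and 2 of the larger library, had a like level of Col1a1, 15.5, but with 16.5 of Col1a2, 23.4 of Col3a1, 18.0 of Col6a1 and 6.87 of Col6a3. They held 95.8 of Dcn, 15.8 of Lum and 4.97 of Pdgfra, and 63.3 over the list without Dcn, with Epcam UMIs in 2 of the 5 and no Aire UMI. In C5 these 5 of 843 cells held 84.1% of the Col1a1, 64.2% of the Col1a2, 49.4% of the Col3a1 and 78.3% of the Col6a3 UMIs, but 0.0511% of those of Col12a1 and 0.686% of those of Lamb1. Without them, also an alternative chosen after seeing the data, 11 members in place of 13 were at least 2-fold higher in C5, all of them among the 13. The share of all genes was not computed for C5 without these cells. Col3a1, no longer counted, went from 0.347 to 0.177 per 10000 in C5 over both libraries, whereas Col8a1 went from 0.0536 to 0.0519 and was close to the limit before (2.11-fold and 2.48-fold over all other cells).

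**Figure D4:**
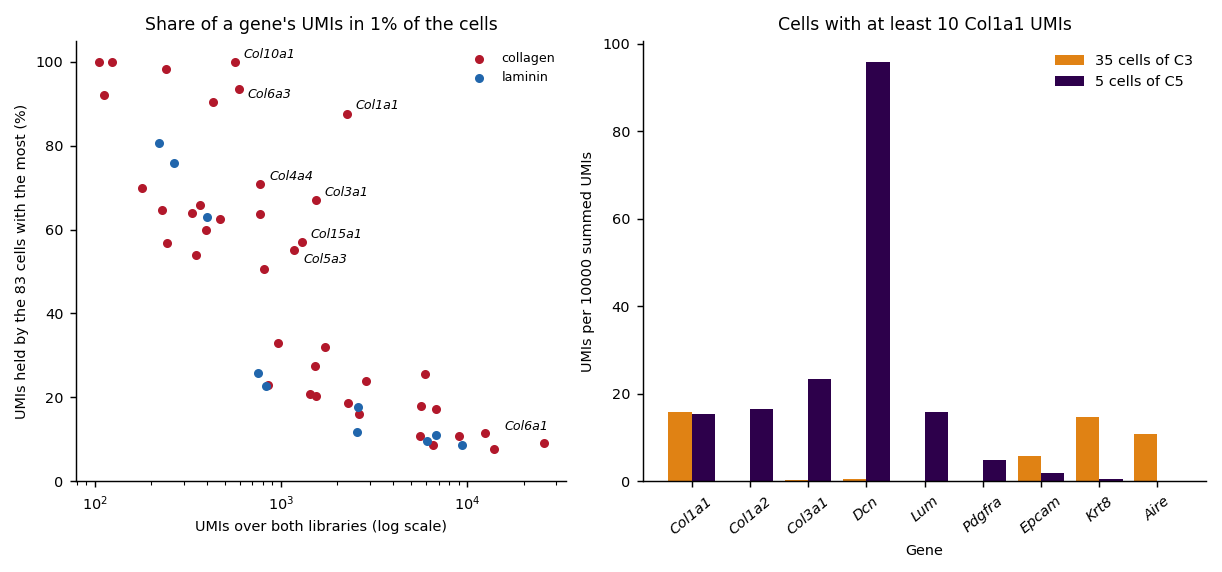
Left, the share of each gene's UMIs (%) in the 83 cells with the most, against its UMIs over both libraries on a log scale, for 50 genes with at least 100 UMIs. Right, UMIs per 10000 of 9 genes in the cells with at least 10 Col1a1 UMIs, 35 of C3 and 5 of C5. The cells of C3 carry Epcam, Krt8 and Aire with almost no Col1a2, and those of C5 carry Col1a2, Col3a1, Dcn, Lum and Pdgfra.

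The libraries were compared to see how TECs of irradiated and control mice differ. Summed over the genes, the libraries were close. Collagens held 9.57 and 9.47 per 10000, a log2 ratio of -0.02 (-0.03 to 0.00), and laminins 2.93 and 2.87, a log2 ratio of -0.03 (-0.06 to 0.00). Both ratios became positive with the TMM or DESeq2 scaling, which add 0.07 and 0.08 to every log2 ratio, so that the small negative ratios given here for Col4a1 and Col1a1 turn positive with them as well. By role, on the log2 scale, the anchoring fibril collagen Col7a1 was at -1.10, the other collagens Col26a1 and Col28a1 at -1.09, the network-forming short collagens at -0.60, the transmembrane collagens at -0.33, the FACIT collagens at -0.12, the laminin beta chains at -0.13, the laminin alpha chains at 0.01 and the beaded filament collagens at 0.13. The negative ratios among these kept their sign under both scalings, while the sums of fibrillar (-0.03), basement membrane (-0.02) and multiplexin collagens (-0.07) did not. The positive ratios could not change sign, because both scalings only add to them. In cTEC-like C8 the laminin sum was 5.43 and 4.33, a log2 ratio of -0.33 (-0.42 to -0.23). Lamb1, at 1.02 and 0.680, was the member past 1.5-fold (1 of 13 lower, against 2.69%, and 0 higher, against 2.01%). Its log2 ratio, -0.588 (-0.822 to -0.351), was barely past this limit, and the shift of either scaling would bring it short of it.

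Col6a1, the most abundant member, held 1.88 and 2.13 per 10000 over all cells, a log2 ratio of 0.18 (0.14 to 0.21), and Col4a1 1.11 and 1.08, a log2 ratio of -0.04 (-0.09 to 0.01). Of the 26 genes with at least 1000 UMIs, the lowest ratios were those of Col5a3, at 0.111 and 0.0806, with -0.46 (-0.62 to -0.29), of Col16a1, at 0.235 and 0.184, with -0.35 (-0.46 to -0.24), and of Col17a1, at 0.253 and 0.205, with -0.30 (-0.41 to -0.20). No member was at least 1.5-fold higher in the larger library, against 1.61% of all genes with at least 100 UMIs, and 9 of the 51 (17.6%) were at least 1.5-fold lower, against 8.78%. The median log2 ratio was -0.12 over the 51 members and -0.05 over all genes.

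The 9 lower genes all had under 1000 UMIs. Col10a1, Col9a1 and Col2a1, all known from cartilage, were among them. Col10a1 held 0.0618 and 0.0323 per 10000, a log2 ratio of -0.94 (-1.18 to -0.69), Col9a1 0.0810 and 0.0466, with -0.80 (-1.01 to -0.59), and Col2a1 0.0828 and 0.0511, with -0.70 (-0.90 to -0.49). Col9a2 and Col9a3, the partner chains of Col9a1 in type IX collagen of cartilage, had ratios above 0, of 0.17 (0.02 to 0.33) and 0.33 (-0.12 to 0.80). Col7a1, of the anchoring fibrils, held 0.0457 and 0.0213, with -1.10 (-1.40 to -0.81), and Col26a1 0.0283 and 0.0128, with -1.14 (-1.53 to -0.76), the lowest ratio of the 51. Col1a2, of type I collagen, held 0.0479 and 0.0244, with -0.97 (-1.26 to -0.69), whereas its partner Col1a1 held 0.182 and 0.174, with -0.06 (-0.18 to 0.06). Col8a2, Col23a1 and Col4a6, which were highest in C5, had -0.89 (-1.28 to -0.50), -0.68 (-0.99 to -0.37) and -0.75 (-1.32 to -0.20). C5 itself made up 12.99% of the cells of the smaller and 8.34% of those of the larger library. Most of these genes rest on few cells, so that the intervals, which treat UMIs as independent, are too narrow. Col10a1, for instance, had 9 cells with at least 10 UMIs in each library, and up to 80 and 46 UMIs in a cell. When the 1% of cells with the most UMIs of a gene were left out in each library (an alternative chosen after seeing the data), 40 members kept at least 100 UMIs, and 5 of them were lower (6.77% of all genes), Col7a1, Col9a1 and Col23a1 of the 9 and also Col5a3 and Col11a2. Col2a1 went to -0.21. The remaining 5 of the 9 had under 100 UMIs left and were not compared, among them Col8a2, with 57 and 24 UMIs (-1.78), and Col1a2, with 29 and 12 (-1.79). For every gene 32 and 51 cells were left out, however many held it. Col8a2 was found in 89 and 75 cells, Col23a1 in 129 and 115, Col7a1 in 135 and 107 and Col9a1 in 131 and 166. A gene found in fewer cells of the larger library thus lost a larger part of them there. The ratios left therefore cannot show whether a difference rests on few cells. The fibroblast list summed to 3.44 and 2.06 per 10000, most of it from Dcn, at 2.71 and 1.44. Dcn UMIs were found in 773 of the 843 cells of C5. All 10 genes of the list had UMIs, with Pdgfra at 0.0124 and 0.00768 and Lum at 0.0492 and 0.0326, while Thy1 was at 0.212 and 0.237. The endothelial list summed to 0.273 and 0.178, with all 7 of its genes lower in the larger library. The mesothelial genes were lower there too, Msln at 0.441 and 0.361. Pericyte and smooth muscle genes went both ways. Higher in the larger library were Acta2, at 3.90 and 4.39, Rgs5, at 2.81 and 3.34, Myh11 and Notch3, and lower were Des and Cspg4. Blood cell genes also went both ways, with Lyz2 at 3.33 and 2.69 and Ptprc at 0.111 and 0.141. The part of these lists in the ratios was not tested.

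**Figure D5:**
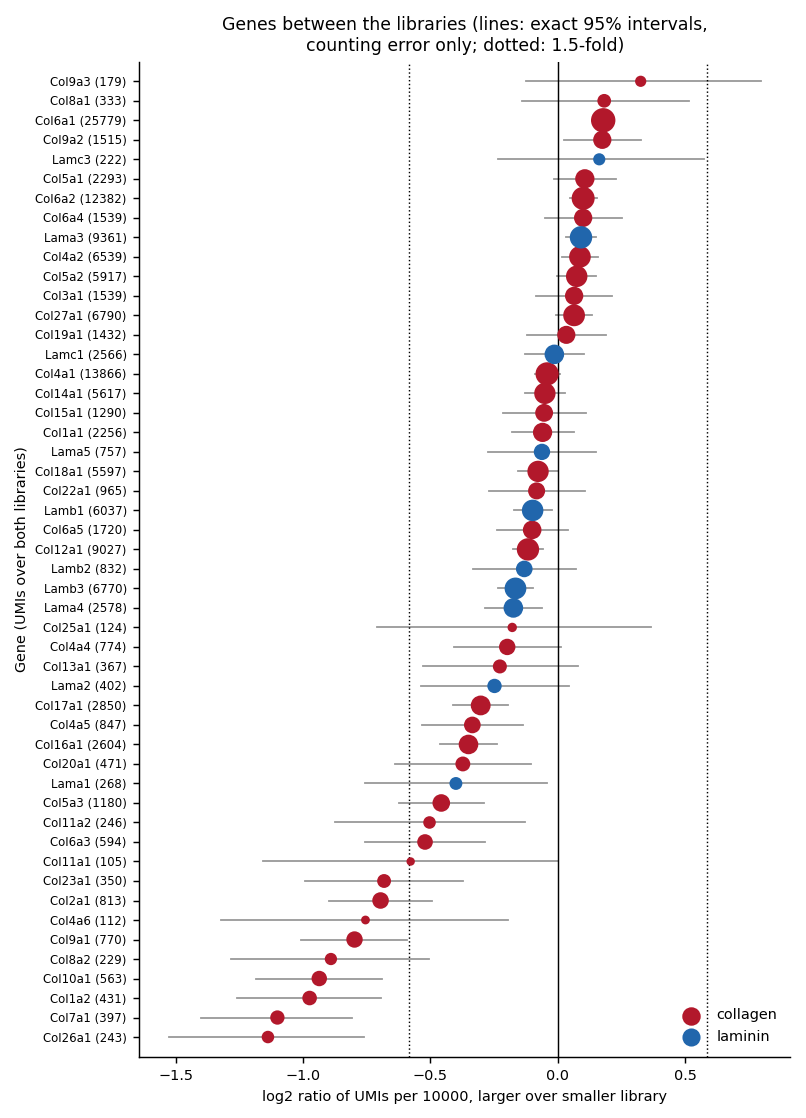
Log2 ratio of UMIs per 10000, larger over smaller library, for 50 genes with at least 100 UMIs, with exact 95% intervals (counting error only), points larger for genes with more UMIs and dotted lines at 1.5-fold. The abundant genes lie near 0, and the 9 genes past the lower line all have under 1000 UMIs.

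Within clusters the largest share of lower members was in C5. There 6 of the 26 members with at least 100 UMIs in the cluster were at least 1.5-fold lower in the larger library, against 2.8% of all genes. Col12a1 had the most UMIs of them and held 2.65 and 1.52 per 10000, a log2 ratio of -0.80 (-0.94 to -0.67), while in the other 8 clusters with at least 100 of its UMIs its ratio ran from -0.33 (-0.58 to -0.07) in C8 to 0.32 (0.08 to 0.56) in C4. Col17a1, Col8a2 and Col23a1 followed at -1.10 (-1.54 to -0.68), -1.08 (-1.69 to -0.52) and -0.95 (-1.53 to -0.41). The others were Col1a1 and Col1a2. Without the 5 cells with fibroblast markers, 4 of 22 were lower, a setting in which the share of all genes was not computed. Col1a1 then had 20 and Col1a2 63 UMIs left in C5, too few to be compared, with log2 ratios of -0.48 and -0.61. Col17a1, of whose UMIs in C5 these cells held 19.8%, went to -0.63, while Col12a1, Col8a2 and Col23a1 stood at -0.81, -1.09 and -0.96. Col18a1, Lamb1 and Lamc1, which were also highest in C5, had ratios of -0.06 (-0.21 to 0.09), 0.20 (0.05 to 0.36) and 0.00 (-0.25 to 0.25), and Col27a1 was the member higher in the larger library (1 of the 26, against 2.31%), at 0.75 (0.18 to 1.34).

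In the Ccl21a+ mTEC-like clusters no member of 25 in C0 was past 1.5-fold in either direction (3.17% of all genes lower and 1.99% higher), and of 24 in C1 only Col2a1 was, at -0.69 (-1.12 to -0.26) (1.51% of all genes lower and 0.756% higher). Col6a1 had 0.03 (-0.03 to 0.10) in C0 and 0.10 (0.04 to 0.16) in C1. It differed more in TA-mTEC-like C6, where it held 0.572 and 0.924 per 10000, a log2 ratio of 0.69 (0.52 to 0.87), together with Col6a2, at 0.66 (0.39 to 0.94), and Col14a1, at 0.60 (0.27 to 0.95) (3 of the 24 higher, against 2.84%), while Col16a1, at -0.67 (-0.93 to -0.41), was lower (1 of 24, against 1.33%). Markers of the Ccl21a+ mTEC list held 22.9 and 30.5 in C6, and their part in this was not tested. In C2, Col5a2, at 0.88 (0.38 to 1.39), was higher (1 of 23, against 2.22%) and Col6a5, at -1.11 (-1.59 to -0.67), lower (1 of 23, against 3.83%). In C7, 0 of 22 members were past the fold (2.34% lower and 2.08% higher).

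In C3, 7 of the 41 members were lower (6.48%) and 3 higher (3.52%). Col5a2 held 0.499 and 0.807 per 10000, a log2 ratio of 0.69 (0.50 to 0.88), while Col22a1 and Col2a1 had -0.94 (-1.31 to -0.58) and -1.45 (-2.04 to -0.90). In C4, 4 of the 31 were lower (4.3%) and 2 higher (2.59%), with Col10a1 at -3.03 (-3.87 to -2.33) from 103 and 18 UMIs and Col15a1 at 1.64 (1.06 to 2.31) from 28 and 129. In C4, 3 cells had at least 10 Col10a1 UMIs and 2 cells at least 10 Col15a1 UMIs. Over all clusters, 57.1% of the Col15a1 UMIs lay in 1% of the cells. In tuft-like C9, Col4a4 held 1.24 and 2.04, a log2 ratio of 0.72 (0.49 to 0.95), 1 of 6 higher (1.84% of all genes), and Col16a1 had -0.93 (-1.45 to -0.44), 1 of 6 lower (3.13%). Over all cells Col4a4 was at -0.20 (-0.41 to 0.01). C9 was 4.70% of the cells of the smaller and 2.90% of those of the larger library.

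Genes that make, bind or cut these proteins were described by fixed lists. Of the collagen-making enzymes and chaperones with at least 100 UMIs, 8 of 29 were at least 2-fold higher in C0 and C1 than in all other cells in each library and 3 lower, with a median fold of 1.19. Serpinh1, the chaperone that binds only procollagen, held 5.70 and 4.62 per 10000 in C0 and 5.09 and 4.89 in C1, 4.55 and 4.52 in C5 and 0.211 and 0.305 in C2. The lysyl hydroxylase Plod2 held 1.23 and 1.24 in C0, and the cross-linking enzyme Lox 0.860 and 1.00 in C1, and the others higher were P3h3, P3h4, Fkbp10, Adamts3 and Loxl1. Of the basement membrane partners 5 of 15 were higher and 5 lower. The matrix protein Sparc was among the higher, but was highest in C5, at 6.83 and 7.48, whereas Nid1, which links laminin to type IV collagen, was lower, with 0.00531 in C0 over both libraries and 0.727 in C3. Of the receptors 5 of 15 were higher and 3 lower. Itga6, a laminin receptor chain, held 7.05 and 7.29 in C0 and 2.05 and 2.03 in C4, and the other higher ones were Ddr1, Dag1, Bcam and Cd151. The hemidesmosome list, which holds Col17a1, had 2 of 6 higher, Itga6 and Cd151, and 0 lower. Of the matrix-cleaving enzymes and inhibitors 3 of 11 were higher, Mmp9, Mmp11 and Timp1, and 3 lower. The share of all genes was 5.49% higher and 30% lower.

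Between the libraries the counts were small and are read against the 1.61% of all genes higher and 8.78% lower. At least 1.5-fold apart in the larger library were 0 of 29 enzymes and chaperones higher and 2 lower, 0 of 15 basement membrane partners higher and 1 lower, 1 of 15 receptors higher and 0 lower, and 0 of 11 matrix-cleaving enzymes and inhibitors higher and 2 lower, and 0 of the 6 hemidesmosome genes in either direction. Their median log2 ratios ran from -0.14 to -0.02, with -0.05 over all genes.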

How the data were processed

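The transcriptomes of sorted murine TECs were measured by 3′ droplet scRNA-seq in 2 libraries, labelled radiation and control. The authors deposited raw UMI counts per gene and barcode, made with Cell Ranger, version 5.0.1 per the file headers and 5.1 per the submitters' processing notes, after read trimming with Fastp, against mm10. The chemistry is version 3 in the study's methods and version 2 in the labels.

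Barcodes were kept with 2000 to 7500 detected genes (of those found in at least 5 barcodes) and under 15% mitochondrial UMIs, as in the study. Libraries were integrated and clustered with Seurat 5.3.0 (R 4.3.3) with 3000 variable genes, 2000 anchor genes, 20 components and resolution 0.5, leaving out the collagen and laminin genes. Clusters were named from marker lists, and may differ from those of the study. Scrublet (scanpy 1.11.5) called 1 and 4 doublets, too few to have worked, so none were removed, and RNA from neighbouring cells or droplets cannot be told apart from that of the cell. UMI counts were summed per cluster and library in Python 3.11.15 (numpy 2.4.6, pandas 2.3.3, scipy 1.17.1), and ratios had 0.5 UMIs added. On simulated counts for the comparison of the libraries over 16986 genes, the sign was recovered for 200 of 200 changed genes. The counts were drawn as independent UMIs, and the changes were 2-fold or 4-fold. This checks the calculation only, and not smaller ratios or genes whose UMIs lie in few cells. edgeR 4.0.16 (TMM) and DESeq2 1.42.0 (size factors) served as alternative scalings of the sums, with no test.

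The genes and lists were chosen with earlier results of these data known. Values are given for genes with at least 1000 UMIs, for up to 3 more of each role with the most UMIs, and for the laminin chains. A member of the list is counted in totals but not reported here by name. Col4a3, Col24a1, and the named genes outside the lists were picked after their values were seen. All 55 gene IDs matched GENCODE vM21. Intervals treat UMIs as independent.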

Additional observations from a re-analysis of the deposited data

How the results depend on the processing

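The number of genes followed was 55 under other limits on cells and on detected genes, and 51 with at least 100 UMIs. The share of collagen UMIs held by the Ccl21a+ mTEC-like clusters was 39.6%, and became 37.4% with the collagen and laminin genes kept in the clustering, 37.4% at resolution 1.0, 38.1% without integration, 38.3% with a minimum of 1000 detected genes, 38.2% with under 10% mitochondrial UMIs and 42.4% without the highest 5% of Scrublet scores. That of laminin UMIs was 36.9%, and in the same order became 34.4%, 34.2%, 34.9%, 34.9%, 35.7% and 39.6%. In the alternatives of clustering the number of cells so named changed with it. With the members kept, at resolutions 0.3 and 1.0 and without integration, 10 genes, the same ones, remained at least 2-fold higher in these clusters. The shares of all genes were 5.41%, 5.5%, 5.39% and 5.31%, in this order. At 4-fold 2 genes (Col6a1 and Col6a2) were higher, against 0.971% of all genes. The log2 ratio of the collagen sum (larger over smaller library, -0.02) was 0.0597 with TMM, 0.0674 with DESeq2 size factors, -0.0665 without Col6a1 and 0.0350 with the same cluster weights in both libraries. Chosen after seeing the data, it was 0.0168 without C5 and -0.0576 without C0 and C1. That of the laminin sum (-0.03) was 0.0447 with TMM, 0.0523 with DESeq2 size factors, -0.0736 as the mean share per cell, -0.0710 without Lama3, 0.00127 with the same cluster weights and, chosen after seeing the data, 0.0192 without C5. The sign of either sum is therefore not settled, and the cause was not tested. The number of genes lower in the larger library was 9 of 51 at 1.5-fold (8.78% of all genes) and 2 of 51 at 2-fold (2.63%). At 1.5-fold it was 10 of 55 with a minimum of 20 UMIs (13.4%) and 8 of 47 with 200 (6.51%). With TMM it was 9 of 51 (7.1%). Without the 1% of cells with the most UMIs of each gene, chosen after seeing the data, it was 5 of 40 (6.77%). Of 57 alternatives computed, 30 stayed within the counting interval or 1.5 times of the value given and 27 moved, among them those in which a sum changed sign. No paired analysis was possible because each condition has 1 library. Genes with under 100 UMIs in a cluster were not compared there, which left 6 in C9 and 13 in C8.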
